A study of Mus musculus with 8 samples.

Results

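Endocytic and neuronal genes near human Alzheimer risk signals were measured in nuclei of the mouse hippocampus: Sorl1, Bin1, Picalm, Cd2ap, Pld3, Fermt2, Ptk2b, Epha1 and Mef2c. The 9 genes were chosen by symbol, each symbol matched 1 row of the 30211 genes in the deposited count tables, and the rule uses no measured value, although the genes were picked with earlier results of these data known. Single-nucleus RNA sequencing gave 1 library per mouse from mice labelled C57BL/6 (C57BL/6N in the methods of the study). Wild-type (WT) and GSAP -/- (GKO) mice, 3 of each, were 7 mo old, and a pair with the J20 transgene, 1 on each Gsap genotype (J20;WT and J20;GKO), was 6 mo old. GKO mice constitutively lack internal exons of Gsap, the gene for γ-secretase activating protein, after excision by a CMV-driven Cre. The J20 transgene is a human APP that carries both the Swedish and the Indiana mutation, and its PDGFB promoter is active mainly in neurons. The series addressed what loss of GSAP does to hippocampal cells with and without that transgene, and here the question is where the 9 genes are transcribed and whether they move with genotype.

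Amyloid precursor protein reaches its secretases through the endosomal system, and this is where most of these genes act. Sorl1 encodes a sorting receptor that carries APP from endosomes back to the Golgi, Picalm an adaptor of clathrin coats, Bin1 a BAR-domain protein that bends membranes, and Cd2ap a scaffold that links receptors to actin. Pld3 encodes a lysosomal nuclease. Fermt2 encodes kindlin-2, which activates integrins, and Ptk2b encodes Pyk2, a calcium-responsive tyrosine kinase of the synapse and of myeloid cells. Mef2c encodes a transcription factor of neurons and microglia, and Epha1 an ephrin receptor kinase.

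The libraries held 32041 nuclei after the filter of the study, out of 33314 deposited barcodes, with 21020159 to 43310978 unique molecular identifiers (UMIs) per library and a median of 4579 to 6438.5 UMIs per nucleus. Any 2 libraries shared 2 to 21 barcodes. Nuclei were assigned to cell types by fixed marker genes, none of which is among the 9, and 10.1% of nuclei stayed unassigned. The assigned nuclei comprised 12683 excitatory neurons, 1785 inhibitory neurons, 2911 astrocytes, 7295 oligodendrocytes, 1204 oligodendrocyte progenitor cells (OPCs), 2177 microglia, 233 mural cells or fibroblasts, 225 Cajal-Retzius cells, 220 choroid plexus cells and 63 endothelial cells. Excitatory neurons were divided further into 4962 dentate granule, 3045 CA1, 1401 CA3 and 1139 subiculum or cortex nuclei. The remaining 2136 excitatory nuclei (16.8%) were given no subtype. Levels are CPM, the UMIs of a gene per 1000000 UMIs of all nuclei of that type in that mouse. The median nucleus held 1956 UMIs in microglia and 2210 in oligodendrocytes, but 10419 in excitatory and 11442 in inhibitory neurons. An order by CPM is therefore an order of shares of UMIs and need not be an order of counts per nucleus. Gsap itself was at 21.8 to 23.5 CPM in WT and 20.8 to 22.2 CPM in GKO libraries, but 3′ counts over the whole gene do not test a deletion of internal exons, so the genotypes rest on the labels. App was at 1112 and 1254 CPM in the J20 libraries and at 463 to 554 CPM in the others.

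The genes lie in GRCm38 (GENCODE vM21) on chromosome 9 from 41964720 to 42124297, minus strand (Sorl1), chromosome 7 from 90130213 to 90213465, plus strand (Picalm), chromosome 17 from 42792951 to 42876665, minus strand (Cd2ap), chromosome 14 from 45458795 to 45530118, minus strand (Fermt2), and chromosome 13 from 83504034 to 83667080, plus strand (Mef2c). Picalm overlaps 4 and Fermt2 2 annotated genes on the same strand, so reads shared with these are uncertain. Stretches just upstream of the transcription start are shown for 5 of the genes that differed between cell types, as they stand in the RefSeq table for GRCm38.p6, 5′ to 3′ along the gene. The table held 7 of the 9 genes, without Bin1 and Ptk2b. Among the 8 tested types, Picalm, Cd2ap and Mef2c were highest in microglia, Fermt2 was lowest there, and Sorl1 was highest in excitatory neurons. Capitals mark GGGCGG, the GC box, and GAGGAAG, a purine-rich core of ETS factor sites, each searched on both strands in the 150 bases before the start. The motifs were chosen after the sequences had been read.
Picalm, chr7:90130063-90130212, plus strand: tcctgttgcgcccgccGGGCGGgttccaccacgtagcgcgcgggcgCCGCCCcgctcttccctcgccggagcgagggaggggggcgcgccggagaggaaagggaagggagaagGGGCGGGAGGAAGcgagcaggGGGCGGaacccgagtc
Cd2ap, chr17:42876425-42876574, minus strand: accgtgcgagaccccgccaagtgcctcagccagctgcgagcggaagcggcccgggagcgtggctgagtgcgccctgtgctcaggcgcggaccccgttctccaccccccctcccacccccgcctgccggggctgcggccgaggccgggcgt
Mef2c, chr13:83503884-83504033, plus strand: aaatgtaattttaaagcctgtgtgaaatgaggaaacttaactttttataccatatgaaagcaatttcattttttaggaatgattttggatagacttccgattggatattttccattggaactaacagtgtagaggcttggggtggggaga
Fermt2, chr14:45530066-45530215, minus strand: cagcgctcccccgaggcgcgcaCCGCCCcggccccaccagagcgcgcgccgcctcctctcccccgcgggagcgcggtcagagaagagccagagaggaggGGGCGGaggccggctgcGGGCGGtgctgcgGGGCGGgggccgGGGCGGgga
Sorl1, chr9:42124298-42124447, minus strand: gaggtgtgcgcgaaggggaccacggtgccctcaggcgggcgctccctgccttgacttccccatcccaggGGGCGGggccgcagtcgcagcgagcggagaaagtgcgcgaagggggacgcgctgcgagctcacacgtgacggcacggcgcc
The GC box occurred 4 times before the Picalm start, 5 times before Fermt2 and 1 time before Sorl1, and was not found in the windows of Cd2ap and Mef2c. Of 32851 windows of this length in the table, 28.6% held it. GAGGAAG stood 1 time before Picalm, directly after a GC box and without overlap, and 6.85% of all windows held it. The windows were 76.0% G or C for Picalm, 77.3% for Cd2ap, 82.7% for Fermt2 and 73.3% for Sorl1, but 34.0% for Mef2c, beside a median of 54% over all windows. For Mef2c and Sorl1 the table lists further starts downstream, which are not shown, and the starts used for Cd2ap and Fermt2 lie 241 and 53 bases inside the GENCODE gene. Of the 3 genes highest in microglia among the tested types, Picalm held both motifs and Cd2ap and Mef2c held neither. The matches describe these letters and say nothing of binding.

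The members were distributed unequally over the cell types. Each type was compared with the mean of the other types over the 6 WT and GKO mice in edgeR, with the mouse as a block and mice as replicates, and a gene counted as different if its log2 difference exceeded 0.3 in size with an adjusted p below 0.05. Of the 64 contrasts of 8 genes and 8 types, 20 were higher and 24 were lower, while over all genes and types 45.2% of contrasts passed the same threshold. Epha1 had too few UMIs to enter this fit. The log2 values of edgeR rest on library sizes scaled by TMM, whereas CPM are unscaled. A log2 value therefore need not equal the log2 ratio of the mean CPM beside it. Between neighbours in the order of levels, differences were judged from the same fit, in which 47.6% of all pairwise tests of genes passed, and 39.1% among the subtypes.

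**Figure D1:**
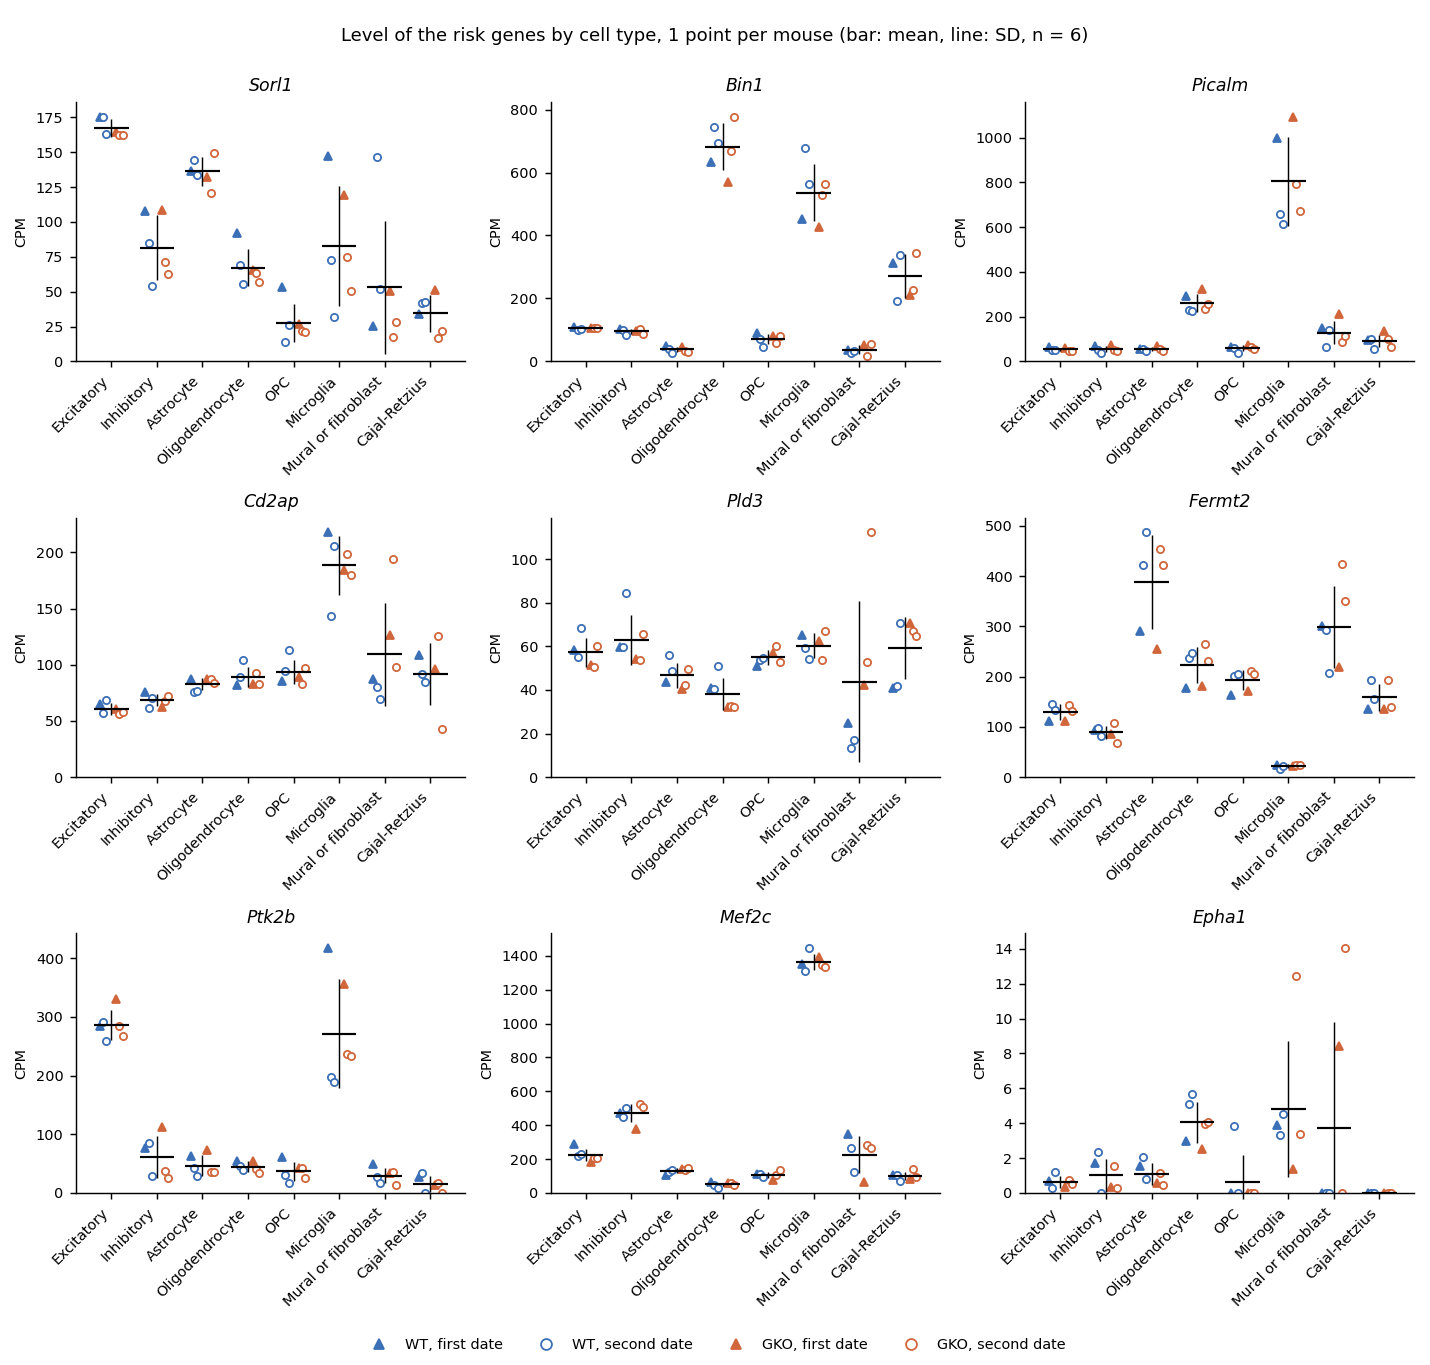
CPM of each gene by cell type, with 1 point per mouse (WT blue, GKO orange, triangles for the mice of the first date), a bar at the mean and a line for the SD over 6 mice. Among the 8 types plotted, Picalm, Cd2ap and Mef2c stand highest in microglia, Bin1 in oligodendrocytes, Fermt2 in astrocytes and Sorl1 in excitatory neurons, and Epha1 lies at or below 14.0 CPM.

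Among the genes of endocytosis and endosomal sorting, Sorl1 was a gene of excitatory neurons and astrocytes. In excitatory neurons the lowest mouse was at 162 CPM, the median at 163 and the highest at 176 CPM. In astrocytes the 6 mice lay between 121 and 150 CPM with a median of 135, so the groups did not overlap. Sorl1 was higher in excitatory neurons than in the other types by 1.69 on the log2 scale (95% interval 1.45 to 1.92, adjusted p = 5.7e-17) and in astrocytes by 1.29 (1.02 to 1.56, adjusted p = 1.8e-11). Excitatory neurons exceeded astrocytes in 6 of 6 mice, by 0.35 on the log2 scale (adjusted p = 0.024). OPCs (27.2 ± 13.6 CPM, SD, n = 6) and Cajal-Retzius cells (34.6 ± 13.3 CPM, SD, n = 6) were lowest, with log2 differences of -1.46 and -1.34. In microglia Sorl1 ranged from 31.6 to 147 CPM over the 6 mice, and its contrast with the other types was not significant (log2 0.20, adjusted p = 0.34).

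Bin1 had its highest CPM in oligodendrocytes and microglia, while excitatory neurons, with 68.8% of all UMIs, held 46.8% of its UMIs. Its level in oligodendrocytes was 571 CPM in the lowest mouse, 681 at the median and 778 in the highest, and in microglia 428, 546 and 679 CPM. The ranges overlapped, but oligodendrocytes were above microglia in each of the 6 mice (log2 0.63, adjusted p = 9.6e-07). Cajal-Retzius cells followed with 192 to 345 CPM, below every microglial value. Excitatory neurons were at 105 ± 3.33 CPM and inhibitory neurons at 95.2 ± 8.41 CPM (SD, n = 6), and these neighbours did not differ beyond the spread between mice (adjusted p = 0.052). Astrocytes (37.8 ± 8.96 CPM) and mural cells or fibroblasts (37.2 ± 14.4 CPM) had the lowest levels. Against the other types, Bin1 was higher by 2.89 in oligodendrocytes, 2.17 in microglia and 0.93 in Cajal-Retzius cells on the log2 scale. The log2 difference was -1.91 in astrocytes and -2.47 in mural cells or fibroblasts.

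Picalm had its highest CPM in microglia, while excitatory neurons held 41.6% of its UMIs. The microglia of the 6 mice lay between 612 and 1095 CPM with a median of 734, the oligodendrocytes between 225 and 322 CPM with a median of 245, and the ranges did not overlap. The contrasts with the other types were 3.12 (3.00 to 3.25, adjusted p = 8.4e-46) for microglia and 1.60 (1.46 to 1.73, adjusted p = 4.9e-30) for oligodendrocytes on the log2 scale. OPCs, astrocytes, inhibitory and excitatory neurons had means between 53.5 and 60.2 CPM, and none of these neighbours differed beyond its spread. Snap91, the neuronal relative of Picalm that encodes AP180, had the opposite pattern, with log2 contrasts of 1.71 in excitatory and 1.91 in inhibitory neurons and -2.14 in microglia.

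Cd2ap was higher in microglia too by CPM, with a smaller step, while excitatory neurons held 60.2% of its UMIs. Microglia held 144 to 218 CPM with a median of 192, against 55.8 to 68.6 CPM in excitatory neurons, where the mean was lowest. Excitatory and inhibitory neurons did not differ beyond the spread between mice. The log2 contrast was 1.05 in microglia (0.89 to 1.21, adjusted p = 6.5e-18), -0.48 in excitatory and -0.40 in inhibitory neurons. Astrocytes, oligodendrocytes, OPCs, mural cells or fibroblasts and Cajal-Retzius cells lay between these levels with no contrast past the threshold. Endothelial cells, with 2 to 22 nuclei per library and 39 Cd2ap UMIs in 6 mice, were listed at 126 to 648 CPM and were not tested. The relative Sh3kbp1, which encodes the adaptor CIN85, was likewise higher in microglia (log2 2.07) and also in oligodendrocytes (1.51).

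Pld3 varied least between types. Mean levels ran from 38.1 ± 7.47 CPM in oligodendrocytes to 63.0 ± 11.4 CPM in inhibitory neurons (SD, n = 6), and no pair of neighbours in the order differed beyond its spread. The contrasts past the threshold were small, 0.37 in excitatory neurons, 0.39 in inhibitory neurons, -0.31 in oligodendrocytes and -0.73 in mural cells or fibroblasts. Of 13 alternative settings, 10 lost the call in mural cells or fibroblasts, 4 in oligodendrocytes, 3 in excitatory and 1 in inhibitory neurons. With library size alone as the scaling, the values were 0.29 in inhibitory neurons and -0.28 in mural cells or fibroblasts. The relative Pld4, a nuclease of myeloid cells, was by contrast at 227 ± 71 CPM in microglia and at most 1.96 CPM on average in the other 7 types.

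Fermt2 was highest in astrocytes and lowest in microglia. Astrocytes lay at 256 CPM in the lowest mouse, 422 at the median and 487 in the highest, and mural cells or fibroblasts at 207, 296 and 424 CPM. The mural and fibroblast nuclei also carried astrocyte markers, at a median of 63.6 UMIs per 10000 beside 136 for their own list, and the part of these in the Fermt2 level was not tested. Oligodendrocytes (223 ± 35.6 CPM), OPCs (193 ± 19.5 CPM) and excitatory neurons (130 ± 15.2 CPM, SD, n = 6) held intermediate levels. Microglia ranged from 16.5 to 25.1 CPM, below every value of every other type tested. The log2 contrast was 1.76 in astrocytes (1.61 to 1.90, adjusted p = 2.6e-30) and -3.17 in microglia (-3.45 to -2.90, adjusted p = 4.6e-29). In the kindlin family Fermt3, the blood cell member, took the reverse pattern with 654 ± 81 CPM in microglia and at most 22.1 CPM on average in the other 7 types.

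Ptk2b was shared by excitatory neurons and microglia. Excitatory neurons lay at 259 to 331 CPM with a median of 285, microglia at 190 to 417 CPM with a median of 235, and the ranges overlapped. Excitatory neurons were above microglia in 4 of 6 mice. In WT 1 and GKO 1, the mice of the first date, microglia were higher, at 417 and 356 CPM beside 285 and 331 CPM. By edgeR, excitatory neurons were higher by 0.43 on the log2 scale (adjusted p = 0.013). The mean CPM, which are not scaled as in edgeR, were closer, at 286 in excitatory neurons and 272 in microglia. The other 6 tested types averaged between 15.0 and 61.2 CPM. The contrasts were 2.86 (2.61 to 3.10) in excitatory neurons and 2.37 (2.07 to 2.67) in microglia, with adjusted p-values of 4.4e-24 and 4.3e-18. In all, 90.1% of the Ptk2b UMIs of typed nuclei came from excitatory neurons, which held 68.8% of all UMIs.

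The low levels of Ptk2b outside these types are given beside those of excitatory markers. Summed markers of excitatory neurons stood in astrocytes at 14.6% ± 2.5, in oligodendrocytes at 13.8% ± 1.8 and in OPCs at 13.7% ± 4.7 of their level in excitatory neurons (SD, n = 6). Ptk2b stood at 16% ± 4.9, 15.6% ± 2.2 and 12.7% ± 5.2 of its excitatory level in the same nuclei. Ptk2b was above the markers in 3 of 6 mice in astrocytes, 5 of 6 in oligodendrocytes, 1 of 6 in OPCs, 2 of 6 in inhibitory neurons and 0 of 6 in Cajal-Retzius cells. The part of free RNA in these levels was not tested. In microglia Ptk2b stood at 94.3% ± 29.0 beside markers at 15.0% ± 2.1, and in 6 of 6 mice it was above them. Sorl1 in astrocytes, at 81.6% ± 6.0 of its excitatory level, was also above the markers in 6 of 6 mice, whereas in Cajal-Retzius cells it was above them in 2 of 6.

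Mef2c had its highest level in microglia and its next in inhibitory neurons. Microglia lay at 1312 to 1446 CPM with a median of 1349, and inhibitory neurons at 379 to 528 CPM with a median of 487, and the ranges did not overlap. Excitatory neurons (223 ± 36.3 CPM) and mural cells or fibroblasts (226 ± 108 CPM, SD, n = 6) followed with overlapping ranges, and oligodendrocytes were lowest at 50.3 ± 11.1 CPM. Against the order of the mean CPM, edgeR placed mural cells or fibroblasts below excitatory neurons (log2 -0.62, adjusted p = 0.0066). The log2 contrast was 3.09 in microglia (2.92 to 3.26, adjusted p = 2.4e-39), 1.53 in inhibitory neurons (1.36 to 1.71, adjusted p = 8.7e-23) and -2.02 in oligodendrocytes. The smaller contrast in excitatory neurons (0.42) fell to 0.20 with library size alone as the scaling and then missed the threshold. Mef2a, another gene of the same family, had a log2 contrast of 3.30 in microglia and was lower in both neuron classes.

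Epha1 was barely detected. It had 200 UMIs in all typed nuclei of the 6 mice, 77 of them from excitatory neurons and 59 from oligodendrocytes. Mean levels were 4.05 ± 1.19 CPM in oligodendrocytes and 4.81 ± 3.88 CPM in microglia (SD, n = 6), and 0.63 ± 0.35 CPM in excitatory neurons. Its relatives Epha4, Epha5 and Epha7 were measured well, with log2 contrasts of 2.44, 2.48 and 2.51 in excitatory neurons. No difference of Epha1 between types could be tested at this depth.

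The mural and fibroblast contrasts carry a shift, since their median over all genes was -0.34 on the log2 scale, and the Pld3, Ptk2b, Bin1 and Fermt2 values there stand beside that shift. Apart from Pld3, the calls lost under any other setting were Sorl1 in inhibitory neurons, Picalm in Cajal-Retzius cells, Ptk2b in mural cells or fibroblasts and Mef2c in excitatory neurons. No call changed its sign.

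Within excitatory neurons the subtypes differed in 14 of 32 contrasts, 7 higher and 7 lower, beside 34.8% of contrasts over all genes. Mef2c and Ptk2b separated dentate granule cells from the rest. Mef2c in dentate granule cells lay at 306 CPM in the lowest mouse, 324 at the median and 366 in the highest. CA1 lay at 98.9, 146 and 199 CPM, and CA3 at 58.8, 79.3 and 189 CPM, so both lay below every dentate value. The log2 contrast was 1.496 in dentate granule cells (1.23 to 1.76, adjusted p = 1.5e-08) and -0.93 in CA3 (-1.25 to -0.61, adjusted p = 7.6e-05). The highest CA3 value came from WT 1, with the other 5 mice between 58.8 and 102 CPM.

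Ptk2b fell in steps from dentate granule cells (398 ± 37.4 CPM) through CA3 (295 ± 15.4) and CA1 (252 ± 19.1) to subiculum or cortex (143 ± 24.7 CPM, SD, n = 6). The order held in 6 of 6 mice at each step. Neighbours differed by 0.37 (adjusted p = 8.1e-07), 0.25 (adjusted p = 0.00046) and 0.87 on the log2 scale, the middle step being under the threshold of 0.3. Under library size alone the contrast of CA3 with the other subtypes fell from 0.34 to 0.28.

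Sorl1 was high in CA1 (171 to 216 CPM, median 201) and dentate granule cells (168 to 211 CPM, median 172), which did not differ beyond the spread between mice (adjusted p = 0.10). CA3 (112 to 152 CPM) and subiculum or cortex (96.2 to 159 CPM) lay lower, each below every dentate value. The contrast for CA1 was 0.50 on the log2 scale (0.35 to 0.65, adjusted p = 6.7e-06). Bin1 was higher in CA3 (120 to 130 CPM) than in every other subtype, with no overlap and a contrast of 0.40 (0.32 to 0.49, adjusted p = 1.3e-09). Cd2ap was higher in dentate granule cells (0.40) and lower in CA1 (-0.45), and Fermt2 was higher in dentate granule cells (0.33) and lower in subiculum or cortex (-0.49). Picalm and Pld3 had no subtype contrast past the threshold, with means of 47.8 to 62.2 and 50.8 to 66.5 CPM. The CA3 nuclei also carried subiculum or cortex markers, summed at 2105 to 2387 CPM in WT and 1968 to 2750 CPM in GKO. Their own CA3 list was at 2943 to 3162 CPM in WT and 2894 to 3303 CPM in GKO. The part of this in the CA3 levels was not tested.

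**Figure D2:**
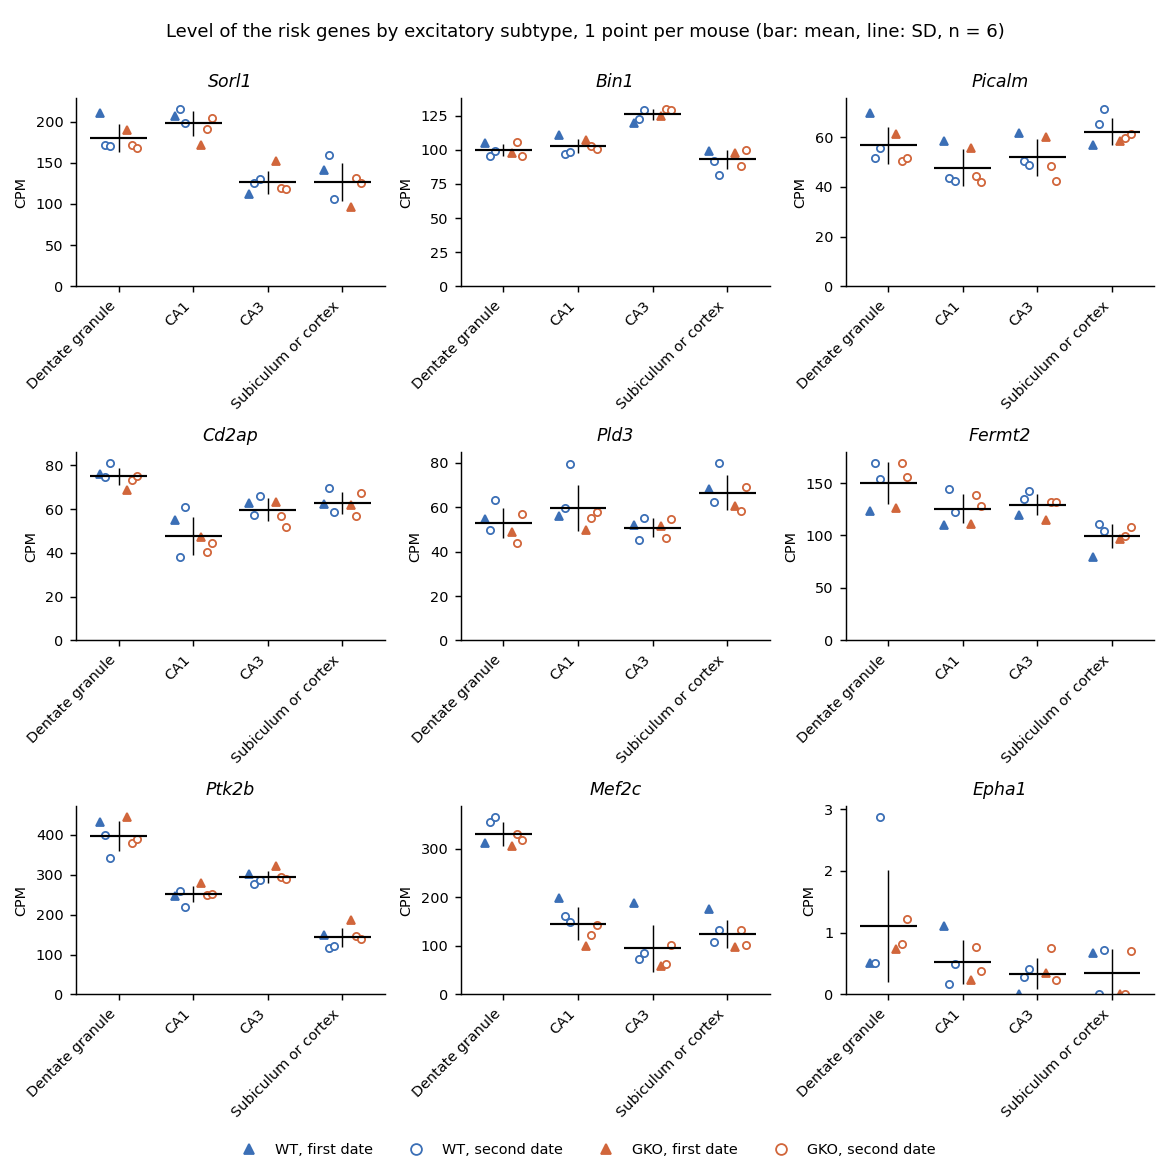
CPM of each gene by excitatory subtype, with 1 point per mouse (WT blue, GKO orange, triangles for the mice of the first date), a bar at the mean and a line for the SD over 6 mice. Dentate granule cells stand apart for Mef2c and Ptk2b, and CA3 for Bin1.

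The wider endocytic machinery was counted in the same way, and in excitatory and inhibitory neurons the shares higher and lower were near those of all genes. In oligodendrocytes this held only for both directions together. Of 54 genes of clathrin coats, scission, early endosomes and retromer, 23 were higher and 16 lower in microglia than in the other types, 20 and 7 in oligodendrocytes, and 17 and 11 in excitatory neurons. Over all genes the shares were 29.2% and 28.5% in microglia, 29.0% and 24.9% in oligodendrocytes, and 33.3% and 24.3% in excitatory neurons. The median log2 contrast of the list was 0.22 in microglia, 0.21 in oligodendrocytes and 0.06 in excitatory neurons. The gene with the largest difference in microglia was Rin3, a guanine nucleotide exchange factor for the endosomal GTPase Rab5 (log2 5.93), and in excitatory neurons it was Sh3gl2, which encodes endophilin A1 (2.31). In oligodendrocytes it was the dynamin gene Dnm3 (2.90), in astrocytes Appl2 (3.05), an effector of Rab5, and in OPCs Epn2 (3.51), which encodes epsin 2. In inhibitory neurons it was Rin3 (-2.29), in mural cells or fibroblasts Hip1r (-4.41), and in Cajal-Retzius cells Dnm3 (1.94). Astrocytes had 7 genes higher and 19 lower, and among the 11 genes of scission and uncoating none was higher there and 8 were lower. Of the same 11 genes, 1 was higher and 8 lower in mural cells or fibroblasts, and 5 and 6 in microglia. The counts were 5 and 4 in OPCs, 4 and 2 in oligodendrocytes and 6 and 0 in inhibitory neurons. Excitatory neurons and Cajal-Retzius cells each had 7 and 2. Over all genes the shares were 28.3% and 18.5% in astrocytes. Inhibitory neurons had 16 higher and 13 lower (31.9% and 21.7% of all genes), OPCs 10 and 14 (24.6% and 13.4%), Cajal-Retzius cells 13 and 8 (11.7% and 9.94%), and mural cells or fibroblasts 4 and 21 (12% and 20.6%). In CA3, 14 of 53 genes were higher and 2 lower, with Snx9 at 1.24, beside 16.4% and 14.3% over all genes. The counts were 3 and 11 in CA1 (13.8% and 12.1% of all genes) and 6 and 11 in dentate granule cells (21.7% and 24.4%). In subiculum or cortex they were 8 and 8 (19.1% and 17.5%).

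Across 12 profiles, those of the 8 types and 4 subtypes, members could be set side by side. Over these 12 profiles of mean log2 CPM, Picalm and Cd2ap had a Pearson correlation of 0.85, Sorl1 and Ptk2b 0.80, Bin1 and Picalm 0.70, and Fermt2 and Mef2c -0.72. Among genes with at least 20 CPM on average, the profile most like that of Picalm was Dennd6a (0.97), that of Cd2ap was Xiap (0.96), that of Bin1 was Stard3nl (0.96), that of Ptk2b was Rras2 (0.95), that of Sorl1 was Mrpl41 (0.92), that of Fermt2 was Cc2d2a (0.92) and that of Mef2c was Man1c1 (0.90). The subtypes are part of the excitatory type and all profiles come from the same 6 libraries, so these values describe likeness and carry no test.

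The libraries of WT 1 and GKO 1 stood apart from the others in several members. Both carry the first of 3 dates in the names of the deposited data, and both had Xist, the transcript of the inactive X chromosome, at 2249 and 2119 CPM, while the other 4 had 1.76 to 2.03 CPM. Eif2s3y, a gene of the Y chromosome, was at 0.10 and 0.07 CPM in WT 1 and GKO 1, and at 120 to 203 CPM in the other 4. The labels give no sex for single mice, but by these 2 transcripts WT 1 and GKO 1 were female and the other 4 male. Date and sex therefore cannot be told apart, and the contrast is given as a description. Over the 8 types, the 2 mice of the first date lay outside the range of the other 4 in 25 of 58 gene and type combinations, and over all genes tested the share was 32.4%. Over the 4 subtypes it was 14 of 32, beside 34.2%.

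Picalm was at 999 and 1095 CPM in the microglia of WT 1 and GKO 1, and between 612 and 793 CPM in the other 4 mice. It was also above the other 4 mice in excitatory and inhibitory neurons, astrocytes, oligodendrocytes and mural cells or fibroblasts. Among the subtypes it was above them in dentate granule cells, CA1 and CA3. In subiculum or cortex it was below them, at 56.9 and 58.4 CPM against 59.5 to 71.5 CPM. In microglia Ptk2b was at 417 and 356 CPM in the first date and between 190 and 236 CPM in the second, and Sorl1 at 147 and 120 CPM against 31.6 to 74.6 CPM. For these 3 genes the microglial values of the dates did not overlap. Fermt2 moved the other way, at 291 and 256 CPM in astrocytes against 422 to 487 CPM, and was below the second date in all 4 subtypes, excitatory neurons, oligodendrocytes, OPCs and Cajal-Retzius cells. Bin1 was lower at the first date in oligodendrocytes and microglia and higher in excitatory neurons, astrocytes and OPCs. Each genotype had 1 mouse of the first date and 2 of the second, so the genotypes were balanced over the dates.

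**Figure D3:**
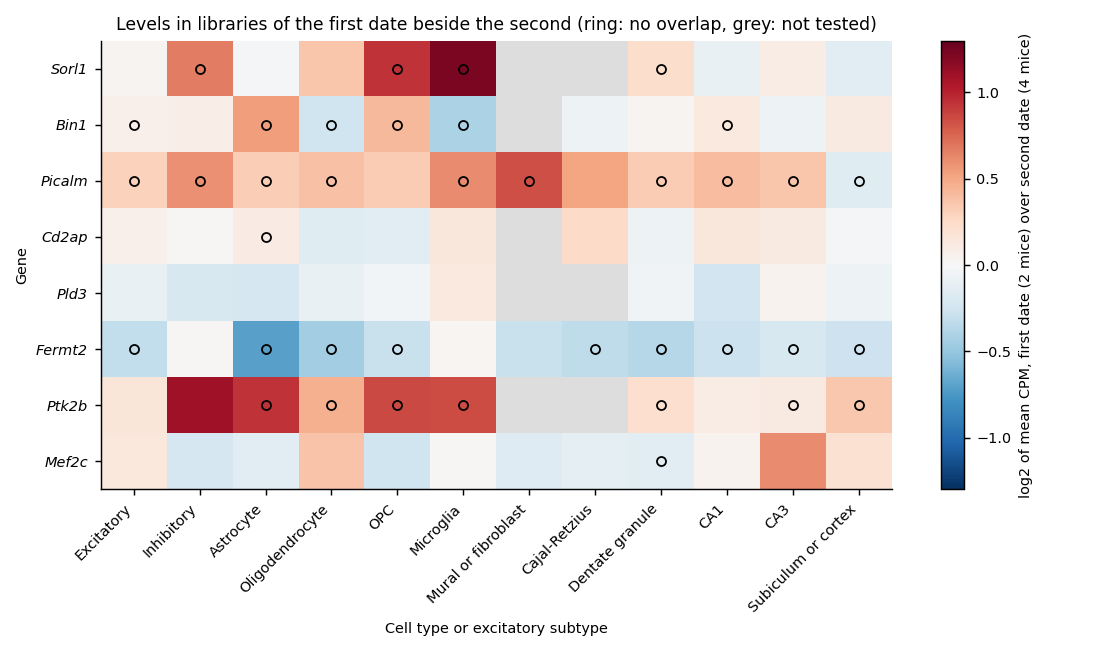
Log2 of the mean CPM of the 2 mice of the first date (WT 1 and GKO 1) over that of the 4 mice of the second, for each gene and cell type or subtype. Red is higher and blue lower at the first date, a ring marks values that do not overlap, and grey marks genes under the filter on low counts. Picalm and Ptk2b are red and Fermt2 is blue in most columns.

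No member was called between GKO and WT mice. GKO and WT mice were compared within each type on UMIs summed per mouse with edgeR, and the threshold was the same, with p adjusted over all genes of that type. No member passed in 58 tests in cell types or in 32 tests in subtypes, where over all genes 0.0% passed in each type and subtype. DESeq2 gave 0 member calls too. The smallest adjusted p of a member was 0.97 in types. At an unadjusted p under 0.05 there were 2 member tests in types and 1 in subtypes, and the groups did not overlap in the same 3. Over all genes 1.73% of tests in types and 1.66% in subtypes had such a p, and 6.3% and 5.79% had groups that did not overlap. The share at such a p was 1.23% in excitatory neurons, 1.40% in oligodendrocytes and 1.49% in CA1. The median half-width of the 95% intervals was 0.41 on the log2 scale in types and 0.30 in subtypes, and these intervals are not adjusted for the number of genes. Littermates of both sexes were used, and the p-values measure the spread between these libraries.

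Mef2c had 2 of these 3 tests, in excitatory neurons and in CA1, whose nuclei are part of the excitatory sum. In excitatory neurons it was at 290, 221 and 232 CPM in WT 1, 2 and 3, and at 185, 204 and 207 CPM in GKO 1, 2 and 3. The GKO values lay below the WT values, as they did for 4.71% of all genes when both directions are counted. The log2 change was -0.30 (-0.58 to -0.02, adjusted p = 1.00, unadjusted p = 0.038), and without WT 1 it was -0.16. In CA1 the values were 199, 162 and 149 CPM in WT and 98.9, 121 and 143 CPM in GKO, a log2 change of -0.47 (-0.81 to -0.14, unadjusted p = 0.0096, adjusted p = 1.00). Groups did not overlap in CA1 for 5.69% of all genes. In CA3 the estimate was -0.63, with an interval from -1.74 to 0.48, and without WT 1 it was -0.06. The estimate was -0.10 (-0.32 to 0.12) in dentate granule cells and -0.34 (-0.76 to 0.08) in subiculum or cortex. It was 0.02 (-0.34 to 0.38) in inhibitory neurons, and groups overlapped in all of these. In microglia, where Mef2c was highest among the tested types, it was -0.02 (-0.34 to 0.31). Summed dentate granule markers in excitatory nuclei were at 1192 to 1459 CPM in WT and 958 to 1465 CPM in GKO. The part of the subtype mix in the excitatory change was not tested.

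Pld3 in oligodendrocytes was the other member with groups that did not overlap. It was at 40.8, 40.6 and 50.8 CPM in WT and at 32.1, 32.5 and 32.1 CPM in GKO, a log2 change of -0.42 (-0.76 to -0.09, unadjusted p = 0.019, adjusted p = 1.00). Over all genes the groups did not overlap for 6.43% in this type. In excitatory neurons, with 20971 Sorl1 UMIs, Sorl1 was at 175, 176 and 163 CPM in WT and 164, 162 and 162 CPM in GKO, and its change of -0.05 had an interval from -0.26 to 0.16. Picalm in microglia was at 999, 657 and 612 CPM in WT and 1095, 793 and 674 CPM in GKO, with overlapping groups and a change of 0.17 (-0.29 to 0.63). GKO was higher in each of the 3 pairs of the same number, and with the replicate number as a block edgeR gave 0.17 (unadjusted p = 0.14, adjusted p = 0.93). The unblocked change was 0.41 without WT 1 and -0.056 without GKO 1. Of the 54 endocytic genes 0 passed in each type and subtype in edgeR, with at most 1 gene at an unadjusted p under 0.05 in a type.

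**Figure D4:**
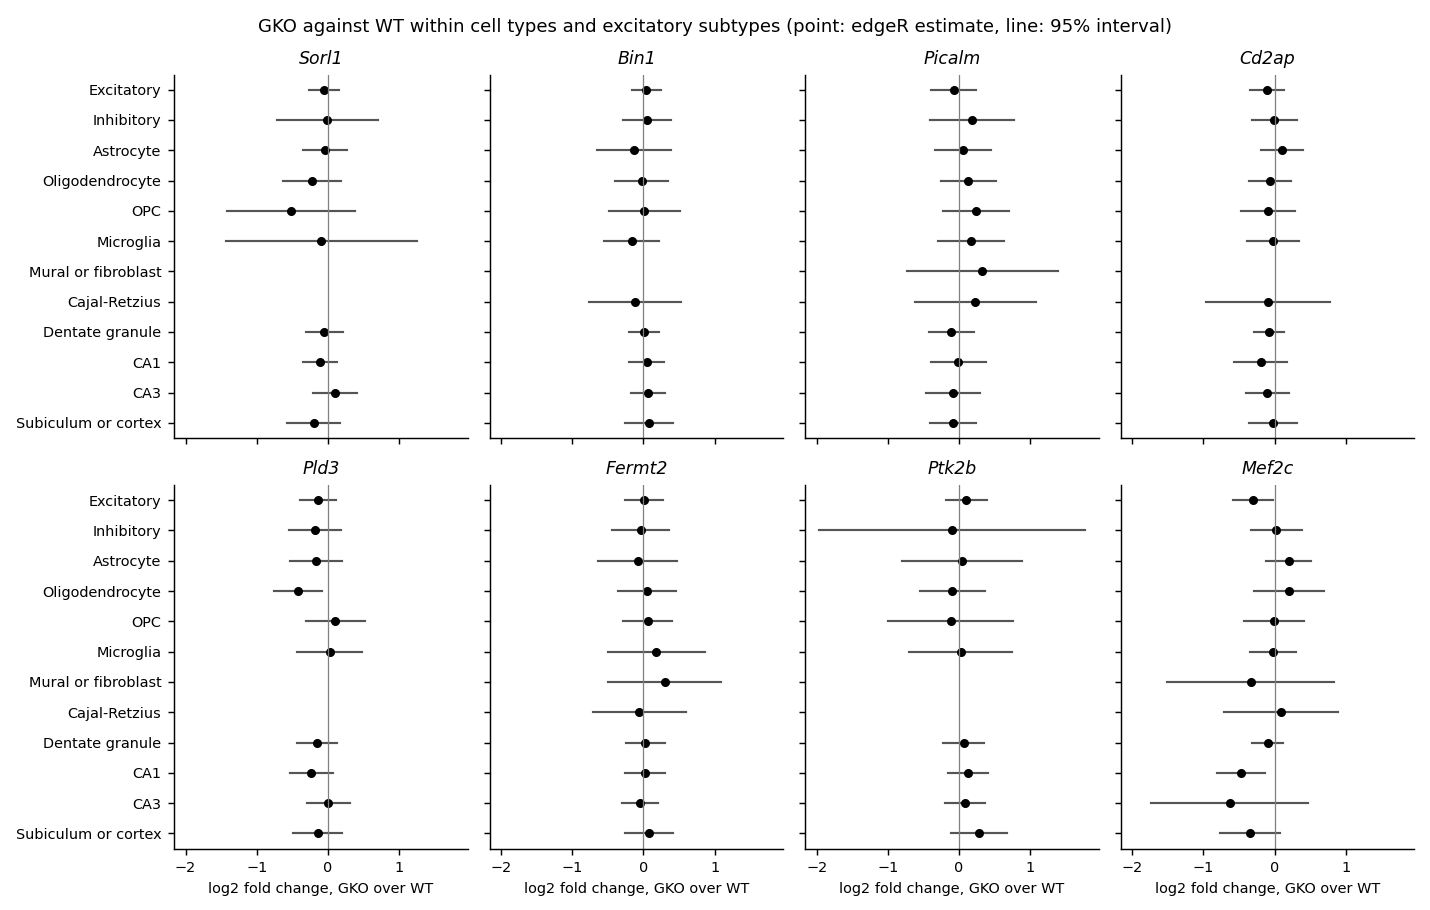
Log2 fold change of GKO over WT for 8 genes in each cell type and excitatory subtype, with the edgeR estimate as a point and its 95% interval as a line. All intervals span 0 except those of Mef2c in excitatory and CA1 neurons and of Pld3 in oligodendrocytes.

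The J20 libraries were 1 mouse per genotype and were not tested. They differ in the date in the names of the deposited data and in Xist, which was at 3.09 CPM in J20;WT and 2395 CPM in J20;GKO. Eif2s3y was at 253 CPM in J20;WT and 0.05 CPM in J20;GKO, so by these transcripts J20;WT was male and J20;GKO female. Genotype, date and sex cannot be told apart in this pair. Intervals on each value are exact Poisson intervals at 95% and cover counting error only. In excitatory neurons, 6 of the 8 members with at least 50 UMIs had intervals that did not touch, 5 of them with the higher value in J20;GKO. Over all such genes 32.7% were apart, and 14.5% were apart with the higher value in J20;GKO. Intervals part more readily at high counts, and these members had 669 to 3909 UMIs per library here. Summed dentate granule markers in the excitatory nuclei were at 1288 CPM in J20;WT and 902 CPM in J20;GKO. The part of the subtype mix was not tested.

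Sorl1 in excitatory neurons was at 135 CPM in J20;WT and 185 CPM in J20;GKO, a log2 ratio of 0.45 (0.36 to 0.54). The 6 WT and GKO mice, which were 7 mo old, lay at 162 to 176 CPM, so the J20;WT value was below them and the J20;GKO value above. In dentate granule cells Sorl1 was at 104 CPM in J20;WT and 172 CPM in J20;GKO, against 168 to 211 CPM in the 6 mice. Bin1 was at 80.5 CPM in J20;WT, below the 101 to 110 CPM of the 6 mice, and at 110 CPM in J20;GKO, within them, with a log2 ratio of 0.45 (0.34 to 0.56). Cd2ap was reversed, at 74.6 CPM in J20;WT and 54.5 CPM in J20;GKO, one on each side of the 55.8 to 68.6 CPM of the 6 mice. The J20;WT library lay outside the range of the 6 mice for 7 of the 8 members in excitatory neurons, and for 50.2% of all genes with at least 50 UMIs.

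Mef2c in the subiculum or cortex nuclei of J20;GKO was at 402 CPM, beside 82.1 CPM in J20;WT and 96.8 to 176 CPM in the 6 mice. The log2 ratio of the pair was 2.29 (1.96 to 2.64), the largest of any member in any type or subtype with at least 50 UMIs. The summed markers of that subtype were at 4442 CPM in J20;GKO and 4499 CPM in J20;WT. They pool subiculum and cortex, so a like sum does not show a like mix of nuclei. Summed CA1 markers in these nuclei were at 205 CPM in J20;GKO, 322 CPM in J20;WT and 268 to 338 CPM in the 6 mice. Summed CA3 markers were at 590 CPM in J20;GKO and 570 CPM in J20;WT. The part of the mix in the Mef2c value was not tested. In dentate granule cells Mef2c went the other way, at 372 CPM in J20;WT and 286 CPM in J20;GKO. In that subtype 5 of 8 members were apart, beside 24.9% of all genes with at least 50 UMIs. The count was 5 of 8 in CA1 (19.0%), 3 of 8 in CA3 (15.6%) and 1 of 8 in subiculum or cortex (14.3%).

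In microglia 2 of 7 members with at least 50 UMIs were apart, beside 11.4% of all such genes. Picalm was at 472 CPM in J20;WT, below the 612 to 1095 CPM of the 6 mice, and at 826 CPM in J20;GKO, within them (log2 0.81, 0.57 to 1.04). Mef2c was at 1359 CPM in J20;WT, within the 6 mice, and at 1085 CPM in J20;GKO, below them. In oligodendrocytes 1 of 8 members was apart (15.0% of all genes with at least 50 UMIs), namely Sorl1 at 51.6 and 79.4 CPM. In inhibitory neurons, astrocytes and OPCs no member was, beside 12.2%, 12.8% and 6.05% of all genes with at least 50 UMIs.

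**Figure D5:**
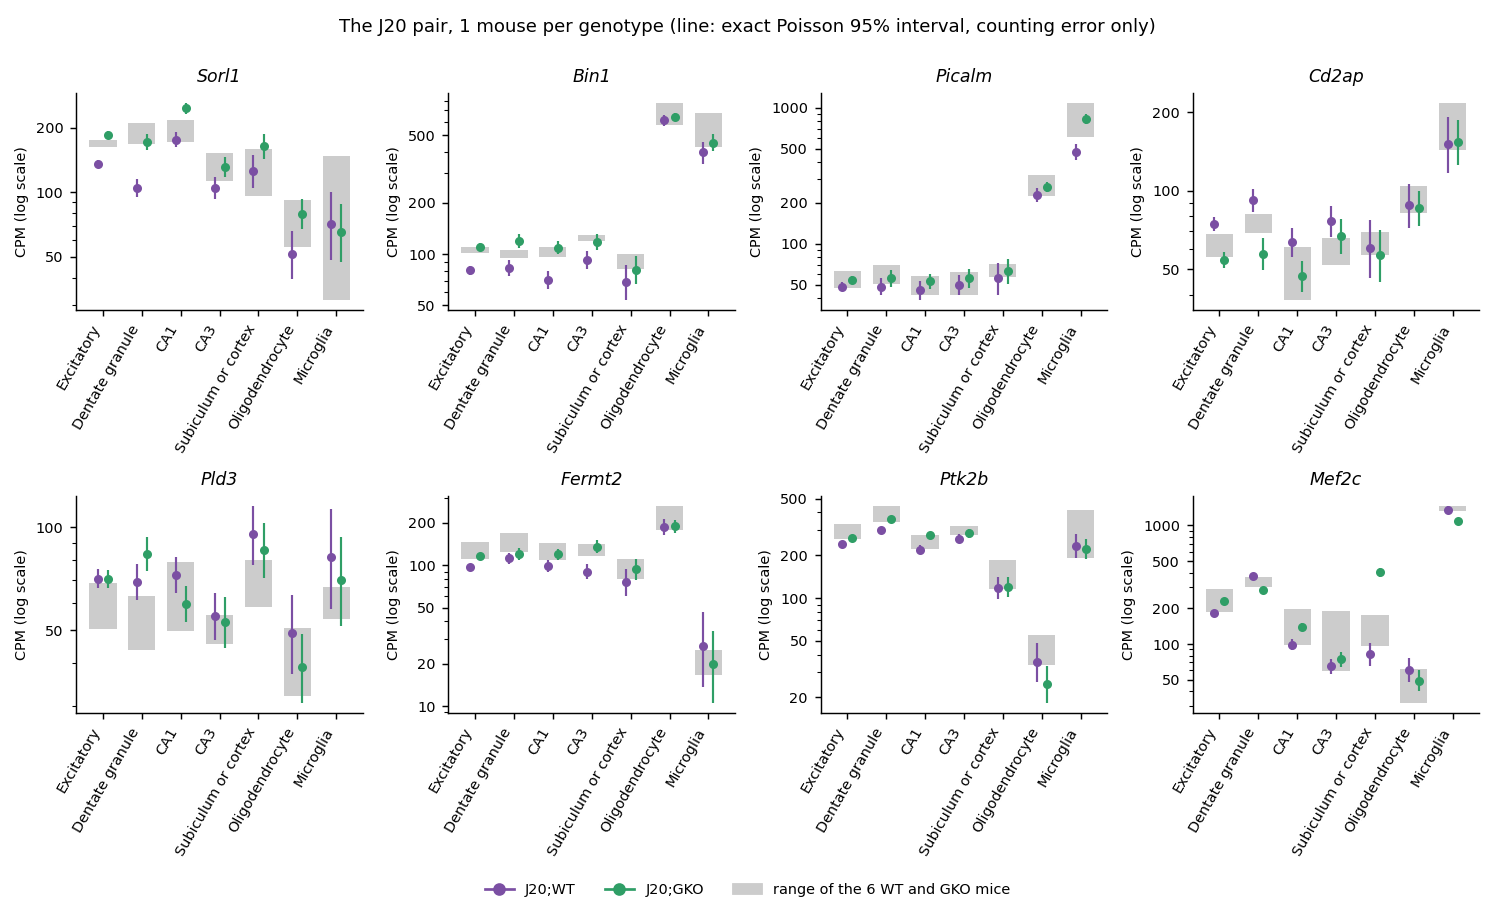
CPM on a log scale of 8 genes in J20;WT (purple) and J20;GKO (green), 1 mouse each, with exact Poisson 95% intervals, beside the range of the 6 WT and GKO mice (grey). J20;WT lies below the grey range for Sorl1 and Bin1 in excitatory neurons, and Mef2c in subiculum or cortex nuclei of J20;GKO lies above it at 402 CPM.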

How the data were processed

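Hippocampal nuclei of 8 mice were sequenced with 10x 3′ chemistry. The authors aligned reads to mm10 with Cell Ranger (3.0.2 in the matrix headers) and deposited raw UMI counts per gene and nucleus; Seurat 3.0 and R 3.6.2 appear in the submitters' processing notes. Nuclei with 200 to 7500 genes and at most 5% mitochondrial UMIs were kept, as in the study. The 108 markers made up 10 lists for types and 4 for excitatory subtypes. A marker's value was its log UMIs per 10000, scaled to and capped at the 75th percentile of its non-zero values. A nucleus took the type whose list had the highest mean if this score reached 0.2 and led by 0.1. Excitatory nuclei were then scored on the subtype lists with the same limits. No doublet caller was run, and nuclei without that lead stayed unassigned. Nuclei near the lead limit numbered 941 of the excitatory and 44 of the microglial ones. Among the subtypes they numbered 202 in dentate granule cells, 347 in CA1, 111 in CA3 and 204 in subiculum or cortex.

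Counts were summed per mouse and type and tested with the quasi-likelihood test of edgeR 4.0.16 (R 4.3.3, TMM scaling, filter on low counts, Benjamini-Hochberg adjustment over all genes of a fit), for types with at least 10 nuclei in each of the 6 libraries. The procedure was tested on simulated data. Likeness used log2 (CPM + 1). The members and the gene lists were chosen with earlier results of these data known. All members were named, and other genes came from fixed lists, as relatives, as the gene with the largest contrast in a type, or as the most alike profile. Alternatives were DESeq2 1.42.0, other scalings, filters and gates, left-out mice, a batch term and a replicate block. The same replicate number went with correlated deviations in WT and GKO in excitatory neurons (r of 0.46, 0.13 and 0.18), astrocytes and microglia, but not in every type. Unlike numbers of the second date correlated as much in excitatory neurons (0.19 and 0.17). J20 values had no test.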

Additional observations from a re-analysis of the deposited data

Results flagged for a closer look

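The difference between GKO and WT in Pld3 went in opposite directions in mural cells or fibroblasts and in oligodendrocytes. In mural cells or fibroblasts Pld3 was at 25.02, 13.3 and 17.3 CPM in WT and at 42.2, 53.0 and 112 CPM in GKO, from 20 UMIs in all 6 mice, and the gene was under the filter on low counts there. In oligodendrocytes every GKO mouse lay below every WT mouse. The log2 ratio of means was 1.90 in the former and -0.45 in the latter, 2.35 apart. The difference between the types was not tested.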

How the results depend on the processing

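No member was called between GKO and WT under any alternative run, with 0 calls in cell types and 0 in subtypes under the replicate block, the batch term, DESeq2, other scalings, no filter on low counts, a stricter gate or nucleus filter, and with each mouse left out. The change of Picalm in microglia ran from -0.056 to 0.41 with 1 mouse left out. Over all genes the calls were 0 in every type and subtype in the reported fit, but 54 in Cajal-Retzius cells, 3 in OPCs and 1 in CA3 under the replicate block, 6 in OPCs with the batch term, 1 in CA1 with DESeq2, at most 10 in a type or subtype with no filter on low counts, and at most 18 with 1 mouse left out (Cajal-Retzius cells, without WT 3). Of the 64 contrasts between cell types, 44 were called, and 39 to 46 under the alternatives (41 to 44 with 1 mouse left out). Of the 32 between subtypes, 14 were called, and 13 to 17 under the alternatives (13 to 14 with 1 mouse left out). The called type contrasts were recomputed 572 times, of which 541 stayed past the threshold, 31 did not and 0 reversed; for subtypes it was 176, 6 and 0 of 182. In the J20 pair 6 members were apart in excitatory neurons, and 7 with TMM-scaled CPM. Among subtypes, calls lost under at least 1 alternative were Fermt2 in dentate granule cells, Ptk2b and Sorl1 in CA3, and Mef2c in subiculum or cortex, which was -0.47 in the 6 mice and -0.17 with all 8 libraries. Sorl1 in CA3 was -0.27 without WT 1. The cause was not tested. Depth limits Epha1, with 200 UMIs, and the mural, fibroblast and Cajal-Retzius values.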

Other observations

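Endothelial and choroid plexus nuclei were too few in single libraries to test. In endothelial cells Mef2c was listed at 130 to 753 CPM over the 6 mice from 56 UMIs, and Fermt2 at 162 to 565 CPM from 47 UMIs. In choroid plexus cells, present in 4 of the 6 mice, Mef2c was at 189 ± 21.6 CPM and Ptk2b at 96.1 ± 67.7 CPM (SD, n = 4).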
